A study of Mus musculus with 40 samples.

Results

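The replication-dependent histone genes of mouse liver were examined, which are the clustered genes with symbols that begin with Hist1h, Hist2h, Hist3h, or Hist4h. Of 70 such genes in a table of 55487 genes, 50 had at least 10 counts in at least 3 of the 38 libraries used. By symbol, these 50 members belong to the families of the linker histone H1 (5 of 6 listed), H2A (8 of 20), H2B (14 of 19), H3 (10 of 12), and H4 (13 of 13). The annotation gives 49 as protein coding and 1, Hist3h2bb-ps, as a processed pseudogene, which did not pass the filter for testing but is part of the sums over members. By position, 41 lie in the Hist1 cluster on chromosome 13 (GRCm38, chr13:21715763-23764406), 5 in the Hist2 cluster on chromosome 3, 3 in the Hist3 cluster on chromosome 11, and 1, Hist4h4, on chromosome 6.

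These genes supply the bulk of the histone protein that packages newly copied DNA, and their transcripts are known to rise in S phase and to be degraded when DNA synthesis ends. Most lack introns, and most of their mRNAs end shortly after a conserved stem-loop instead of in a poly(A) tail. The stem-loop is bound by the stem-loop binding protein SLBP, and U7 small nuclear RNA guides the cleavage that follows it. In adult liver most hepatocytes are quiescent, and these transcripts are usually low until cells enter the cell cycle.

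The livers came from hepatocyte-specific Nampt knockout (HNKO) mice, which carry the floxed Nampt allele (Nampt fl/fl) and a Cre transgene driven by the albumin promoter (Alb-Cre), and from floxed WT littermates. All mice were female, on the C57BL/6JBomTac background, and received a purified diet (PD). Livers were taken at day 3, 6, 12, or 21, which is the length of feeding in the methods of the study, although the label field that holds the day is named age. NAMPT makes nicotinamide mononucleotide for NAD synthesis, and because the albumin promoter is active in hepatocytes, other cells of the whole liver can keep the gene. Total RNA of whole liver was depleted of rRNA and sequenced, a preparation that does not select for poly(A) tails. WT and HNKO had 5 and 5 libraries at day 3, 4 and 5 at day 6, 5 and 6 at day 12, and 5 and 3 at day 21. A further 2 HNKO libraries of day 21, numbers 17 and 18, were described as failing quality control and were kept apart.

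Total counts of the 38 libraries ranged from 16151037 to 64181492. The hepatocyte marker Alb was between 42695 and 119248 CPM (counts scaled to a common library total) in all of them. Nampt was 73.9 ± 14.2 CPM in WT (SD, n = 5) and 38.8 ± 2.65 in HNKO (SD, n = 5) at day 3, and the fitted ratio of HNKO to WT was 0.525, 0.537, 0.568, and 0.622 at days 3, 6, 12, and 21. The adjusted p-values for Nampt were 0.0193, 0.0128, 0.0208, and 0.161 (edgeR quasi-likelihood test, Benjamini-Hochberg adjustment over the 20297 genes tested, as for every adjusted p here). The counts cover the whole gene, so they do not separate the deleted part. CPM values below are scaled by the trimmed mean of M-values (TMM), and log2 fold changes are HNKO minus WT. The edgeR test gives no SE, so each SE here is the absolute log2 fold change divided by the square root of the F statistic. A gene was called where the adjusted p was under 0.05.

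The stem-loops of 7 members are shown because they carry the feature that sets these mRNAs apart and because the H4 genes differ in it. Sequences are from the GENCODE M21 transcripts of GRCm38, written 5′ to 3′ as DNA. The stem and loop are in capitals, with 5 transcript bases on each side.
Hist1h1d: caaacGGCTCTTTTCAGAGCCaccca
Hist1h2ab: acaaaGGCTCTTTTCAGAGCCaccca
Hist1h3e: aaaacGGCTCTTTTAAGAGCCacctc
Hist1h3g: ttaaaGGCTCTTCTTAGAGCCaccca
Hist1h4a: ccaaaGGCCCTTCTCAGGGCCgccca
Hist1h4b: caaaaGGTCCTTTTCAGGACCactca
Hist1h4h: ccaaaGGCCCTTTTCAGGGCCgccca
The search on the transcript strand took the capitals shown for Hist1h1d, for Hist1h4a, and for Hist1h4b, each with any base at positions 8 to 10, counted from the first capital, and another form with the left arm GGTTCTT, which no member held. A match was found in 37 of the 50 members (74.0%), in 46 of the 70 listed clustered histone genes, and in 22 of the 55380 genes outside those 70 (0.04%). The 25 matching H1, H2A, H2B, and H3 members had the first form, and of the 12 matching H4 members 10 had the second and 2, Hist1h4b and Hist1h4j, the third. The other 13 gene models, such as that of Hist1h2bn with 381 bases, held none of these forms. In 16 members the model ended within 100 bases after the stem-loop, and in 21 it ran on by more than 100 bases, as in Hist1h1d, where it ran on for 4884 bases. Some models held the letters AATAAA of a poly(A) signal near their end, among them those of Hist1h1c, Hist1h4a, Hist2h2be, and Hist4h4. Whether the counted RNA ended at a stem-loop or in a poly(A) tail was not tested.

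Many of these genes are near copies of each other, which bears on every count below. Over the 50 members, a median of 44.25% of the 51-base stretches of a gene, the length of a read, also occurred in a transcript of another gene (range 0 to 94.0%). For 20 members the share was over 50%, and for 12 it was at most 20%. The share is taken over the whole gene model, so bases past the stem-loop count toward it. In Hist1h2ac, with a share of 13.9%, the stem-loop ended at base 472 of 2482. The shares of the members described most were 2.2% for Hist1h1d, 38.7% for Hist1h4f, 40.1% for Hist1h4a, 49.6% for Hist1h2bg, 72.9% for Hist1h3e, and 86.1% for Hist1h2bn. The values of the last in particular may miss reads of that copy or hold reads of others, which was not tested. Listed genes with a share of 100%, such as Hist2h2aa1 and Hist2h2bb, had 0 counts in the 38 libraries. Hist1h1e also overlaps the annotated gene Hist1h2be on the same strand, and Hist3h2a overlaps Trim17.

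Compared per length, as mean CPM per kilobase of exon over the 38 libraries, the members spanned 0.180 for Hist1h2ac to 77.2 for Hist1h4h. The order at the top was Hist1h4h at 77.2, Hist1h2bc at 55.9, Hist1h1c at 43.6, Hist1h4c at 32.6, Hist1h4d at 30.8, and Hist1h1e at 30.03 CPM per kilobase. Hist1h4f followed at 14.04 and Hist1h4k at 12.5. The long model of Hist1h1d, 7425 bases, places that gene at 2.45 CPM per kilobase, although its level was 18.2 CPM. The model of Hist1h2ac is also long, at 2482 bases, and its level was 0.447 CPM. The 12 members with the highest mean CPM made up 73.9% to 92.6% of all counts on members in a library (median 88.3%). Some members with few counts passed the count filter only or mainly through HNKO libraries. Hist1h2af reached 10 counts in 4 libraries, all HNKO, with at most 5 counts in WT. Hist1h3g reached 10 counts in 15 libraries, with at most 10 counts in WT. Such members can hardly be lower in HNKO, and they enter the medians, shares of positive values, sums, and calls below.

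At day 3, 5 of the 48 tested members were called, all higher in HNKO, or 10.4% of the members against 4.66% of all genes called in either direction, 2.95% called higher, and 1.71% called lower. They were the linker histone gene Hist1h1d, the H2B gene Hist1h2bn, the H3 gene Hist1h3e, and the H4 genes Hist1h4a and Hist1h4f. The median log2 fold change was 0.74 over the members and 0.013 over all genes, and 42 of 48 members had a positive value (87.5%, against 51.9% of all genes). In 4 members every HNKO library was above every WT library, against 2.31% of all genes, and in 0 members was every HNKO library below, against 1.8%. The count was 11 without HNKO library 22 and 10 without HNKO library 4, and it was 0 to 3 without HNKO library 2, 3, or 23 or without WT library 1, 5, or 25.

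Day 6 gave 4 members called higher and 1 called lower, or 10.4% of the members against 12.8% of all genes in either direction, 8.42% higher, and 4.37% lower. Those called higher were Hist1h2bg, Hist1h2bn, Hist1h3c, and Hist1h4a, and the one called lower was Hist1h2bc. The median log2 fold change was 0.64 over the members and -0.014 over all genes, with 35 positive values. Libraries did not overlap, HNKO above WT, for 8 members, against 8.08% of all genes, and HNKO below WT for 0 members, against 4.68%. The count of calls fell to 0 without HNKO library 29 or WT library 8, was 2 or 3 without WT library 10, 27, or 28, and was 9 without HNKO library 6.

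Day 12 had a single member called, Hist1h4a (2.08% of the members, against 7.82% of all genes in either direction, 4.56% higher, and 3.27% lower). A positive value was found for 41 members, and the median log2 fold change was 0.71 over the members and 0.002 over all genes. Libraries did not overlap for 3 members, Hist1h2ab, Hist1h2bb, and Hist1h4a, all with HNKO above WT, against 2.65% of all genes above and 2.14% below. Without HNKO library 32 the count was 2, and without WT library 34 it was 4.

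At day 21, 17 of 48 members were called, all higher in HNKO (35.4%, against 3.12% of all genes in either direction, 2.21% higher, and 0.916% lower). All 48 tested members had a positive log2 fold change, with a median of 1.27 (range 0.019 to 2.79) against -0.013 over all genes, of which 48.3% were positive. The 48 include members that passed the count filter mainly through HNKO libraries, among them the called Hist1h3g. In 22 members every HNKO library was above every WT library, against 7.25% of all genes, and in 0 members was the reverse found, against 6.7%. The called genes included 3 for H1, 1 for H2A, 5 for H2B, 4 for H3, and 4 for H4. HNKO had only 3 libraries at this day, and the count was 0 without HNKO library 37, 9 without HNKO library 38, and 6 without any 1 of WT libraries 19, 21, or 41. Over all 4 days, 19 members were called at least once, 34 had a positive value at every day, and 29 were never called. The matching shares of all genes over the 4 days are not given here, so these counts are not set against a background. In bulk liver, more or fewer cells that express these genes cannot be told apart from more or less RNA per cell.

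**Figure D1:**
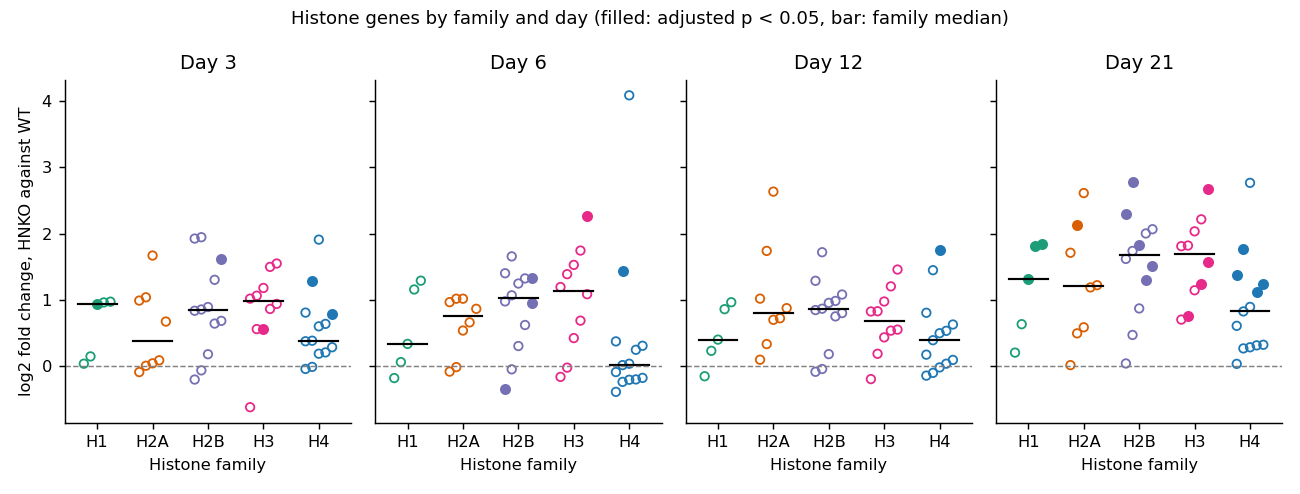
Log2 fold change of HNKO against WT for each of the 48 tested histone genes, by family (horizontal axis) and day (panels). Filled points passed an adjusted p of 0.05 in edgeR, open points did not, and bars mark family medians. At day 21 every point lies above 0 and 17 are filled.

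Among the linker histones, which bind DNA between nucleosomes, Hist1h1d (ENSMUSG00000052565.7, chr13:23553262-23560686) was called at days 3 and 21. At day 3 its CPM was 10.2, 11.1, 11.2, 12.1, and 16.5 in WT and 15.2, 15.6, 21.3, 28.3, and 37.1 in HNKO. The groups overlapped in the highest WT library and the 2 lowest HNKO libraries, and the log2 fold change was 0.94 ± 0.24 (SE, edgeR, adjusted p = 0.0192). At day 21 WT gave 10.05, 10.2, 12.0, 14.2, and 14.9 CPM and HNKO gave 24.5, 33.6, and 34.2. No library overlapped at that day, and the log2 fold change was 1.32 ± 0.26 (SE, edgeR, adjusted p = 0.00495). At days 6 and 12 the values were 0.34 and 0.40 and did not pass the test (edgeR adjusted p = 0.411 and 0.265). Hist1h1a and Hist1h1b, which have no stretch in common with other genes, were called at day 21 only, at log2 fold changes of 1.84 ± 0.46 and 1.81 ± 0.46 (SE). Hist1h1c and Hist1h1e, the H1 genes with the most counts, were not called at any day in the edgeR fit of all 8 groups, although Hist1h1c passed at day 21 in a fit of the 2 groups of that day alone (edgeR adjusted p = 0.0173). Hist1h1c was 47.7, 48.6, 49.4, 50.7, and 54.0 CPM in WT and 65.7, 78.1, and 89.7 in HNKO at day 21, a separation of the groups at a log2 fold change of 0.64 ± 0.23 (SE) with an edgeR adjusted p of 0.112. For Hist1h1e the log2 fold changes were 0.041, -0.18, -0.15, and 0.21 over the 4 days.

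Of the 8 H2A genes, whose products pair with H2B at the edge of the nucleosome core, Hist1h2ab (chr13:23751126-23751598) was called at day 21 and no other was called at any day. Its level was low, at 0.039, 0.198, 0.309, 0.552, and 0.584 CPM in WT and 0.708, 1.76, and 1.87 CPM in HNKO. The log2 fold change was 2.13 ± 0.59 (SE, edgeR adjusted p = 0.0415). At day 12, WT lay between 0.038 and 0.274 CPM and the 6 HNKO libraries between 0.366 and 0.760 with a median of 0.534, also without overlap, and the log2 fold change of 1.74 ± 0.60 (SE) had an edgeR adjusted p of 0.063. The median over the H2A genes was 0.38, 0.77, 0.80, and 1.21 on the log2 scale at days 3, 6, 12, and 21.

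Among H2B genes, Hist1h2bn (chr13:21754123-21754503) was called higher at days 3, 6, and 21. At day 3 it was 0.324, 0.773, 0.916, 1.12, and 1.37 CPM in WT. In HNKO at that day 3 libraries lay between 3.65 and 3.82 and the others at 0.972 and 1.56 CPM, within or close to the WT range. At day 6 WT gave 0.969, 0.998, 1.03, and 1.17 CPM and HNKO gave 1.77, 1.91, 1.91, 2.11, and 5.31, without overlap. At day 21 WT lay between 0.353 and 1.06 CPM and HNKO at 1.29, 2.25, and 4.10, again without overlap. The log2 fold changes of Hist1h2bn were 1.62 ± 0.40, 1.34 ± 0.43, 0.99 ± 0.40, and 1.83 ± 0.44 (SE) in the order of the days, with edgeR adjusted p-values of 0.0186, 0.0345, 0.116, and 0.0193.

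Hist1h2bg (chr13:23571396-23572013) was called at days 6 and 21. At day 21 its CPM was 1.41, 1.5, 1.6, 1.75, and 2.13 in WT and 2.68, 4.37, and 5.41 in HNKO, and the log2 fold change was 1.30 ± 0.31 (SE, edgeR adjusted p = 0.0179). At day 6 the 4 WT libraries lay between 1.51 and 2.23 and the 5 HNKO libraries between 1.80 and 6.20 CPM, and the log2 fold change was 0.96 ± 0.30 (SE, edgeR adjusted p = 0.0326). Hist1h2bc (chr13:23684199-23692908), the H2B gene with the highest level per length, was the only member called lower, at day 6, when 4.37% of all genes were called lower, and it kept that call in 1 of 9 fits with a library left out. Its CPM was 72.0, 74.9, 75.9, and 78.5 in WT and 48.0, 55.0, 58.2, 63.7, and 73.2 in HNKO, so that only the highest HNKO library lay within the WT range. The log2 fold change of Hist1h2bc was -0.34 ± 0.12 (SE, edgeR adjusted p = 0.0487) at day 6 and 0.044 ± 0.13 (SE, edgeR adjusted p = 0.903) at day 21. Its gene model held no stem-loop of the forms searched. The other H2B genes called at day 21 were Hist1h2bb, Hist1h2bl, and Hist1h2bm, at log2 fold changes of 1.52, 2.79, and 2.30.

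**Figure D2:**
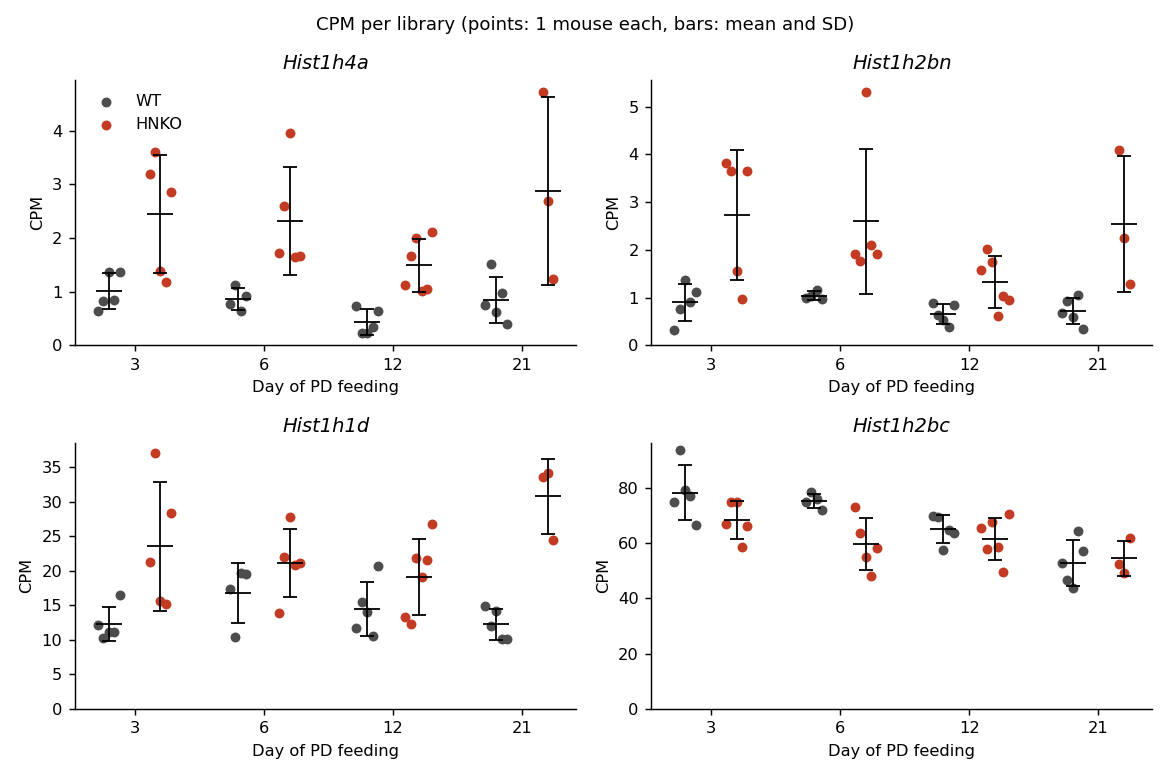
CPM (vertical axes, starting at 0) of Hist1h4a, Hist1h2bn, Hist1h1d, and Hist1h2bc in each of the 38 libraries, by day of PD feeding, with WT in grey and HNKO in red. Points are single mice, and bars are the mean and SD. Hist1h4a in HNKO at days 6 and 12 lies wholly above WT, whereas the Hist1h2bc groups overlap at every day.

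Among H3 genes, which with H4 form the tetramer at the centre of the nucleosome, Hist1h3e (chr13:23561534-23562369) was called at days 3 and 21. At day 3 it was 5.53, 6.62, 7.20, 7.50, and 7.53 CPM in WT and 8.17, 8.38, 9.71, 10.7, and 13.97 in HNKO, without overlap, at a log2 fold change of 0.57 ± 0.17 (SE, edgeR adjusted p = 0.0467). At day 21 WT lay between 4.85 and 5.87 CPM and HNKO at 6.34, 9.22, and 11.02, at a log2 fold change of 0.76 ± 0.19 (SE, edgeR adjusted p = 0.0244). At day 6 the value was -0.019 ± 0.18 (SE), with groups that overlapped. Hist1h3c (chr13:23744973-23745602) was called at day 6, where WT gave 0.043, 0.295, 0.359, and 0.536 CPM and HNKO gave 0.911, 0.955, 1.07, 1.09, and 3.19. The log2 fold change of Hist1h3c was 2.26 ± 0.65 (SE, edgeR adjusted p = 0.0189) and the groups did not overlap. Hist1h3a, Hist1h3f, and Hist1h3g were also called at day 21, at log2 fold changes of 1.57, 1.25, and 2.68.

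H4 genes encode the same protein from many loci, and 1 of them, Hist1h4a (chr13:23760692-23761230), was the only member called at all 4 days. At day 3 it was 0.649, 0.819, 0.845, 1.36, and 1.37 CPM in WT and 1.18, 1.39, 2.87, 3.20, and 3.61 in HNKO, and the groups overlapped. At day 6 WT gave 0.634, 0.781, 0.927, and 1.13 CPM and HNKO gave 1.65, 1.66, 1.73, 2.59, and 3.96. At day 12 WT gave 0.225, 0.239, 0.335, 0.639, and 0.735 CPM, and HNKO ranged from 1.005 to 2.11 with a median of 1.40. The groups did not overlap at these days. At day 21 WT lay between 0.392 and 1.52 CPM and HNKO at 1.23, 2.69, and 4.72, so that 1 WT library exceeded the lowest HNKO library. The fitted ratio of HNKO to WT was 2.45, 2.698, 3.36, and 3.42, the log2 fold changes were 1.29 ± 0.38, 1.43 ± 0.42, 1.75 ± 0.40, and 1.77 ± 0.42 (SE), and the edgeR adjusted p-values were 0.0436, 0.0203, 0.00789, and 0.0171. The two-sided exact permutation test of the means of log2 CPM gave 0.0317, 0.00794, 0.00216, and 0.0357 for Hist1h4a, where the smallest values that the group sizes allow are 0.00794, 0.00794, 0.00216, and 0.0179. Left out 1 library at a time, Hist1h4a kept its call in 3 of 10, 6 of 9, 11 of 11, and 7 of 8 fits in the order of the days.

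Hist1h4f (chr13:23551258-23551648) was called at days 3 and 21. At day 3 it was 2.50, 3.66, 3.98, 4.44, and 4.57 CPM in WT and 4.91, 5.77, 6.99, 7.38, and 8.21 in HNKO, at a log2 fold change of 0.79 ± 0.21 (SE, edgeR adjusted p = 0.027). At day 21 WT gave 2.59, 3.78, 3.89, 3.94, and 4.10 CPM and HNKO gave 5.88, 9.13, and 11.1, at a log2 fold change of 1.25 ± 0.23 (SE, edgeR adjusted p = 0.00399). The groups did not overlap at either day, and the exact permutation p was the smallest that the group sizes allow, 0.00794 and 0.0179. Hist1h4j and Hist1h4k were called at day 21, at log2 fold changes of 1.38 and 1.12. The H4 genes with the highest levels per length, Hist1h4h, Hist1h4c, and Hist1h4d, were not called at any day in the edgeR fit of all 8 groups. With the run of library numbers, 1 to 21 or 22 to 41, as covariate, Hist1h4h and Hist1h4d passed at day 21 (edgeR adjusted p = 0.0427 and 0.0244). Hist1h4h was between 29.9 and 48.8 CPM in all libraries of day 3, at a log2 fold change of -0.0073 ± 0.12 (SE). At day 21 it was 25.2, 31.01, 32.1, 33.7, and 34.4 CPM in WT and 35.99, 38.7, and 42.9 in HNKO, at a log2 fold change of 0.33 ± 0.14 (SE, edgeR adjusted p = 0.192). Hist1h4m had the highest log2 fold change of any member at day 6, 4.09 ± 1.81 (SE, edgeR adjusted p = 0.138), but its WT libraries were between 0 and 0.084 CPM, 89.8% of its stretches occurred in other genes, and it was not called.

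The members were also split by level, and the difference between the sets was not tested. The 12 members with the highest mean CPM had a median log2 fold change of 0.25, -0.13, 0.11, and 0.32 at days 3, 6, 12, and 21, with 3, 0, 0, and 4 called higher and 1 lower at day 6. The other members, of which 36 were tested, had medians of 0.88, 1.001, 0.84, and 1.67, with 2, 4, 1, and 13 called higher. The median SE was 0.18 to 0.22 in the first set and 0.42 to 0.47 in the second. As summed CPM, the 12 members had an HNKO to WT ratio of means of 1.08, 0.911, 1.03, and 1.33, and the other 38 members had 1.59, 1.61, 1.54, and 2.41. At day 21 the sum over the 12 was 271.7 ± 6.23 CPM in WT (SD, n = 5) and 360.3 ± 33.9 in HNKO (SD, n = 3), and the sum over the other 38 was 33.7 ± 8.39 and 81.4 ± 28.1 CPM. In both sets no library overlapped between genotypes at day 21, and in both the groups overlapped at the other days.

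**Figure D3:**
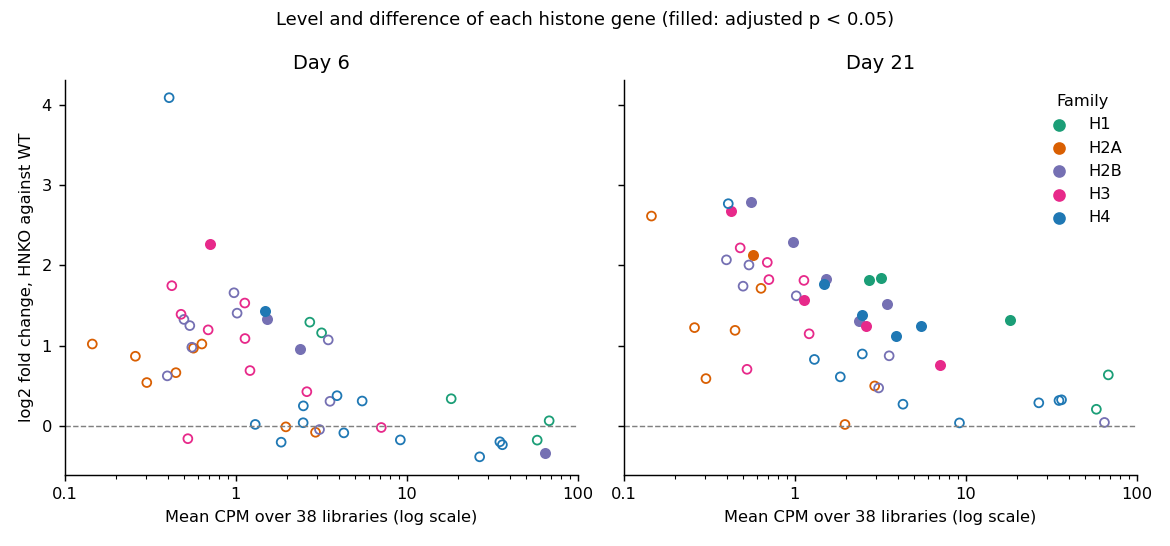
Log2 fold change of HNKO against WT at days 6 and 21 (vertical axis) against the mean CPM over 38 libraries (horizontal axis, log scale) for each tested histone gene, coloured by family. Filled points passed an adjusted p of 0.05. The 12 members with the most counts lie between -0.38 and 0.38 at day 6, with Hist1h2bc called lower, and Hist1h1d is the called member with the most counts at day 21.

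**Figure D4:**
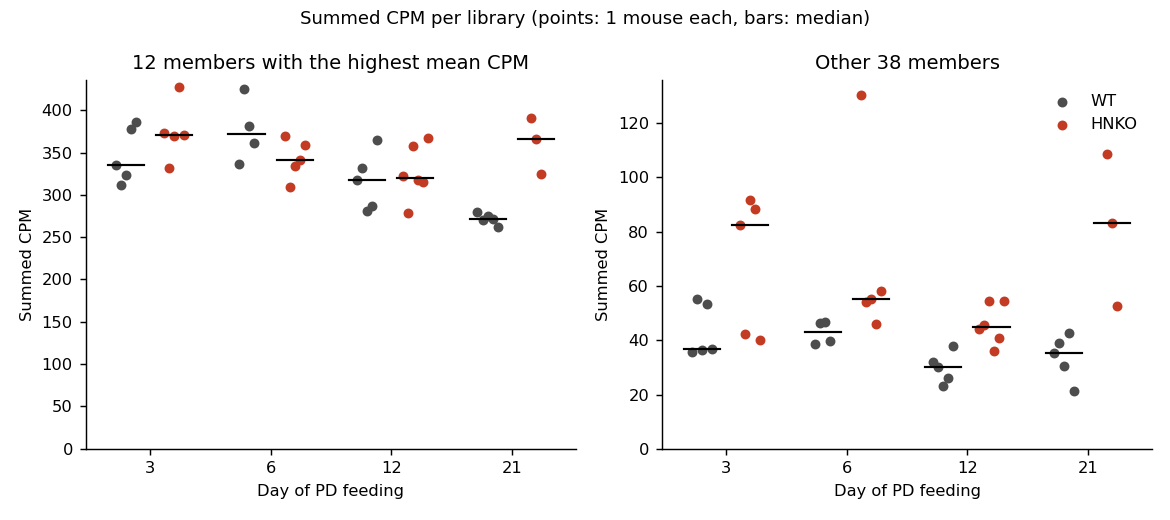
Summed CPM of the 12 members with the highest mean CPM and of the other 38 members in each library (points, 1 mouse each, with group medians as bars), by day of PD feeding. At day 21 all HNKO points lie above all WT points in both panels.

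Split by position, all calls fell on members of the Hist1 cluster, of which 41 were tested, whereas 0 of the 7 tested members of the Hist2, Hist3, and Hist4 clusters were called in edgeR at any day. The difference between clusters was not tested. The median log2 fold change in the Hist1 cluster was 0.86, 0.96, 0.80, and 1.52 over the 4 days, and that of the 5 Hist2 members was -0.060, -0.078, -0.039, and 0.50. Hist4h4 gave 0.29, -0.085, 0.041, and 0.27, and Hist3h2a 0.046, -0.011, 0.10, and 0.019. Of the Hist3 genes, Hist3h2ba and Hist3h2bb-ps did not pass the filter on low counts and were not tested. By form of the gene model, members whose model ended within 100 bases after the stem-loop had a median of 0.88, 1.08, 0.92, and 1.78, those whose model ran past it 0.47, 0.16, 0.32, and 0.82, and those with no stem-loop in the model 0.95, 1.001, 0.85, and 1.76. At day 21 the calls in these classes were 6 of 16, 6 of 20, and 5 of 12. The classes also differ in level, since their median mean CPM was 1.05, 2.49, and 1.21. Over the 12 members with at least 80% of their stretches unique, the median was 0.33, 0.19, 0.21, and 0.76, with 1, 0, 0, and 3 called, which were Hist1h1d at day 3 and Hist1h1a, Hist1h1b, and Hist1h1d at day 21. These 12 include members with long models, such as Hist1h1d and Hist1h2ac, and the part of model length in this split was not tested.

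Promoter sequence was compared because clustered histone promoters carry known elements, among them the CCAAT box, the TATA box, and the octamer that binds OCT1. The 150 bases before the RefSeq start (GRCm38.p6) are shown for 4 members called at 1 or more days and for Hist1h4h, the member with the highest level per length, which was not called. Capitals mark matches on either strand to the CCAAT box, to the octamer ATTTGCAT, to the TATA box letters TATAAA, or to the letters TTTCGCGC, which resemble an E2F site.
Hist1h1d (chr13:23554882-23555031, plus strand): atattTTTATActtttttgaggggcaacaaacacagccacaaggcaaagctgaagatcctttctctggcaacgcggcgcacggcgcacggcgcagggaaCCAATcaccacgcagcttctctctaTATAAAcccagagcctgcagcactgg
Hist1h2ab (chr13:23750938-23751087, plus strand): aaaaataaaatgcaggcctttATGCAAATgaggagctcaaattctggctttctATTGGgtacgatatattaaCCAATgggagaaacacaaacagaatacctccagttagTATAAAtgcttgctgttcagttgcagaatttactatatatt
Hist1h2bn (chr13:21753926-21754075, plus strand): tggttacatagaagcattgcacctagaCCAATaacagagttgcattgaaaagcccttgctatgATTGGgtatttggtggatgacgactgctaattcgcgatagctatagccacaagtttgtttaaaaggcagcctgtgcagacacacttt
Hist1h3e (chr13:23562386-23562535, minus strand): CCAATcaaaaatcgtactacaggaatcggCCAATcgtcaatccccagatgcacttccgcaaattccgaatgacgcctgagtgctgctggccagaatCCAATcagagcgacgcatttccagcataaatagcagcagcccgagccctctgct
Hist1h4h (chr13:23530894-23531043, plus strand): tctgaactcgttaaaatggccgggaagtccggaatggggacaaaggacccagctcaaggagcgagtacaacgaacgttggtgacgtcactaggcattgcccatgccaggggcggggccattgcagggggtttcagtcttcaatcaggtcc
Of 44 members found in the table of RefSeq promoters, which spans 250 bases before to 50 after the start, 35 held CCAAT (79.5%, against 41.1% of all 27025 genes), 28 TATAAA (63.6% against 15.7%), 10 ATTTGCAT (22.7% against 1.97%), and 4 TTTCGCGC (9.09% against 0.374%). ATTTGCAT was found in 5 of 8 H2A and 5 of 11 H2B promoters and in no other family, and CCAAT in all 32 promoters of H1, H2A, H2B, and H3 but in 3 of 12 of H4. Matches of different motifs can share bases, as where CCAAT runs into ATTTGCAT. Windows of neighbours on opposite strands can overlap, as for Hist1h2ak and Hist1h2bn and for Hist1h2ae and Hist1h2bg. The last pair holds the same ATTTGCAT site, so the promoters are not all separate sequences and some sites count for 2 members. The RefSeq start of Hist1h1d lies inside the longer GENCODE gene model, so its window is not the region before that model.

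The calls of single members were checked with each library left out in turn, and all fits kept the direction of the calls listed here. The log2 fold change of Hist1h1d stayed between 0.71 and 1.07 at day 3 and between 1.27 and 1.48 at day 21, and that of Hist1h2bn between 1.38 and 1.83, 0.91 and 1.45, and 1.31 and 2.17 at days 3, 6, and 21. By the test, Hist1h1d kept its calls of days 3 and 21 in 6 of 10 and 7 of 8 fits, and Hist1h4f kept the same calls in 5 of 10 and 7 of 8. Hist1h2bn kept those of days 3, 6, and 21 in 7 of 10, 4 of 9, and 6 of 8 fits, and Hist1h2bg those of days 6 and 21 in 5 of 9 and 7 of 8. Hist1h3e kept those of days 3 and 21 in 2 of 10 and 6 of 8 fits. Hist1h3c kept its call in 7 of 9 fits and Hist1h2ab in 2 of 8.

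The members were also compared over the days within each genotype. Within WT, 2 of 48 members had a day effect (edgeR F test over the 4 days, against 5.84% of all genes). These were Hist1h2bc, at 78.4, 75.3, 65.2, and 53.0 CPM in the order of the days (edgeR adjusted p = 0.00316), and Hist1h4h, at 38.9, 42.0, 31.4, and 31.3 CPM (edgeR adjusted p = 0.0416), both lowest at day 21. Within HNKO only Hist1h3e was called, at 10.2, 7.11, 6.48, and 8.86 CPM (edgeR adjusted p = 0.028, against 7.9% of all genes). At an unadjusted p under 0.05, 8 members and 4312 of all 20297 genes passed in WT, and 12 members and 4646 genes in HNKO. With the run of library numbers as covariate, the WT count was 5, and with single libraries left out it ranged from 1 to 4. For the interaction of genotype and day, edgeR called 0 members and 0 of all genes, so a difference between the days in the genotype effect is not shown for any member. At an unadjusted p under 0.05, 4 members, Hist1h3e, Hist1h1d, Hist1h4h, and Hist1h4f, and 966 genes passed, and the interaction was not run with DESeq2.

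Libraries of one group differed in the members with few counts, and they also differed in other lists. At day 3 the sum over the other 38 members was 82.5, 88.2, and 91.9 CPM in HNKO libraries 2, 3, and 23 but 39.97 and 42.4 in HNKO libraries 4 and 22, against 35.6 to 55.2 in WT. In the same order, a list of 25 genes of G2 and mitosis summed to 268.8, 187.0, and 251.7 CPM and to 47.3 and 49.2, against 50.9 to 126.3 in WT. At day 6 HNKO library 29 stood at 130.5 CPM for the other 38 members and 223.7 for mitosis, while the other 4 HNKO libraries lay between 46.2 and 58.1 and between 72.8 and 102.8. At day 12 the other 38 members lay between 35.9 and 54.5 CPM in HNKO and between 23.1 and 37.7 in WT. Mitosis lay between 43.9 and 107.9 CPM in HNKO and between 33.3 and 58.3 in WT at that day. At day 21 HNKO libraries 37, 38, and 40 had 108.6, 83.1, and 52.5 CPM for the other 38 members and 209.9, 154.2, and 60.3 for mitosis, against at most 42.8 and 78.4 in WT. A list of 10 cholangiocyte and progenitor markers summed to 422.1, 314.7, and 419.4 CPM in HNKO libraries 2, 3, and 23, to 141.1 and 118.3 in HNKO libraries 4 and 22, and to 783.7 in HNKO library 29, against 38.3 to 59.4 in all WT libraries. At day 21 the order was another one, since HNKO libraries 37, 38, and 40 had 509.4, 141.3, and 236.4 CPM for these markers, so that library 38 was lowest here but not for the histone members or mitosis. Of its 9 tested genes, 7, 7, 6, and 5 were called higher at the 4 days, with groups of summed CPM that did not overlap at any day, while Cftr was at 0 in 1 library. Stellate cell and fibroblast markers were called higher in 4, 5, 3, and 4 of 10 and lower in 1 at day 12, macrophage markers higher in 1, 6, 2, and 2 of 10, and neutrophil markers higher in 0, 5, 2, and 1 of 5. Endothelial markers were called lower in 3 of 10 at day 6 and in 2 at day 12, with 1 higher at day 12, and their summed HNKO to WT ratios were 0.942, 0.893, 0.914, and 0.922 with groups that overlapped at each day. Of T and NK cell, B and plasma cell, and erythroid markers, at most 1 of a list was called at any day. The summed hepatocyte markers went the other way, with HNKO to WT ratios of means of 0.762, 0.681, 0.829, and 0.801 at days 3, 6, 12, and 21, and with groups that did not overlap at day 6. Of 9 hepatocyte markers tested, Alb and Ttr were called lower at day 6 (log2 fold changes -0.67 and -0.64) and Cyp3a11 higher at day 12 (0.69). The part of these cell types in the histone values was not tested.

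**Figure D5:**
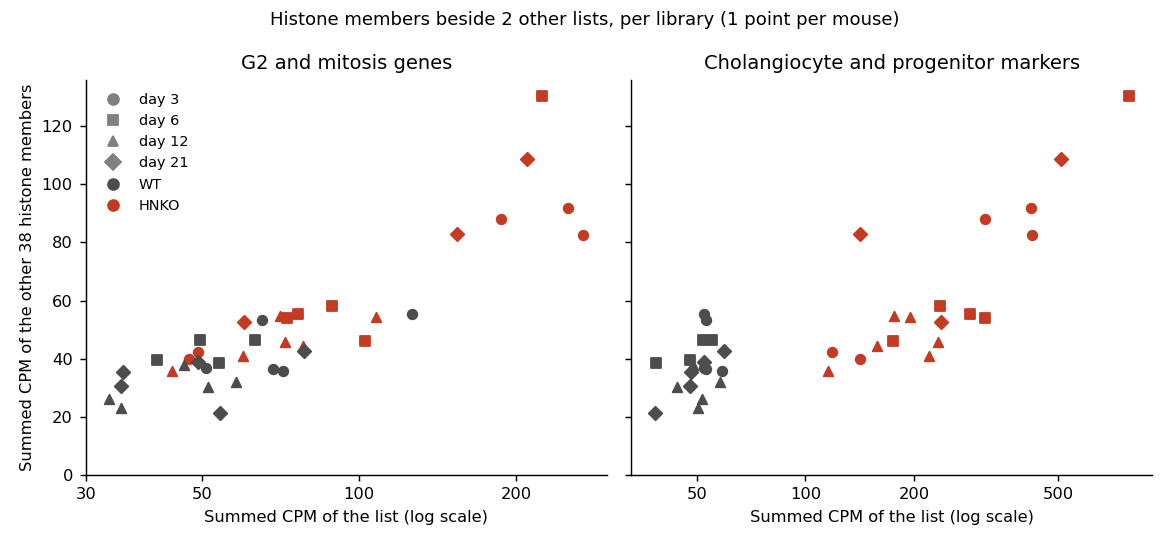
Summed CPM of the other 38 histone members (vertical axis) against the summed CPM of a list of G2 and mitosis genes and of a list of cholangiocyte and progenitor markers (horizontal axes, log scale), 1 point per library, with WT in grey, HNKO in red, and days by symbol. HNKO library 29 of day 6 is the highest point in the left panel, at 130.5 CPM, and lies farthest right in the right panel, at 783.7 CPM.

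Counts of calls in the other lists are to be read against all genes, of which 2.95%, 8.42%, 4.56%, and 2.21% were called higher and 1.71%, 4.37%, 3.27%, and 0.916% lower at days 3, 6, 12, and 21. Among the factors that make and handle histone mRNA, of 23 tested genes of histone RNA processing and turnover, 1 was called higher at day 3, the U7-associated factor Zfp473 (log2 fold change 1.76 ± 0.46, SE, edgeR adjusted p = 0.0229), and 2 lower at day 12, Snrpd3 and Ncbp2, at -0.42 and -0.36. Slbp, which was chosen after its values were seen, had log2 fold changes of -0.059, -0.079, -0.003, and 0.070 over the 4 days, and Npat, the activator of histone transcription at the start of S phase, 0.098, 0.13, 0.045, and -0.034, none of them called. Of 24 histone chaperones and assembly factors, the calls were Asf1b higher at day 6 (1.67 ± 0.49, SE, edgeR adjusted p = 0.0213), Mms22l higher and Atrx and Anp32e lower at day 12 (0.69, -0.31, and -0.49), and Hjurp lower at days 3 and 6 (-0.39 and -0.42). The 10 tested genes of replication-independent histones, which are made throughout the cell cycle and include H2afz and H3f3b, had 0 calls at any of the 4 days in edgeR, and their medians were 0.063, 0.021, -0.095, and 0.038.

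Of 42 DNA replication genes, 4, 7, 5, and 3 were called higher at the 4 days and 1, Pold2, lower at day 6, beside 4.66%, 12.8%, 7.82%, and 3.12% of all genes called in either direction, with medians of 0.27, 0.22, 0.21, and 0.32. Mcm6, a subunit of the replicative helicase, and Uhrf1, which guides maintenance of DNA methylation, were called higher at all 4 days. The log2 fold changes of Mcm6 were 0.93, 0.99, 1.14, and 1.204 and those of Uhrf1 1.49, 1.66, 1.35, and 1.66. As summed CPM, the DNA replication list had HNKO to WT ratios of means of 1.06, 1.04, 1.11, and 1.11. The summed ratios of the G1 to S list were 1.24, 1.07, 1.08, and 1.10, and in both lists the groups overlapped at each day. Of 22 genes of G1 to S control, 2, 1, 1, and 0 were called higher, namely E2f2 at days 3 and 12, Ccnd2 at day 3, and Cdc25a at day 6. Of 25 genes of G2 and mitosis, 0, 3, 0, and 7 were called higher, with medians of 1.196, 1.27, 1.06, and 1.78. At day 21 these included Aurkb (2.78 ± 0.65, SE), Ccnb2 (2.36 ± 0.58), and Top2a (2.26 ± 0.56), and the last was also called at day 6 (1.65 ± 0.55). The summed ratios of the mitosis list were 2.10, 2.17, 1.61, and 2.81, with groups that overlapped except at day 6. Across the lists, the medians of the mitosis genes were above those of the histone members at each day, a difference that was not tested.

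The numbers in the labels form 2 runs over the time course, libraries 1 to 21 and libraries 22 to 41, and what separates the runs is not given in the sources used here. Within the first run the number of members with a higher mean log2 CPM in HNKO was 45, 34, and 44 of 48 at days 3, 6, and 12, and within the second run it was 38, 35, 40, and 46 at the 4 days. Day 21 of the first run holds only WT among the libraries used, since its HNKO libraries are 17 and 18. Hist1h4a, Hist1h2bn, Hist1h1d, Hist1h2bg, and Hist1h4f were higher in HNKO in all 7 of these comparisons, and Hist1h2bc was lower in all 7.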

How the data were processed

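Per the labels and the methods of the study, whole-liver total RNA was depleted of rRNA, prepared with a stranded kit, and read as 51-base pairs. The authors aligned reads with STAR 2.7.2b to GRCm38 and counted them per gene with featureCounts 1.6.4, and the deposited table holds these raw counts for 40 libraries. Whether strand was used in counting, and how reads with several matches were treated, is not given in the sources used here. From the counts, edgeR 4.0.16 (R 4.3.3) was fitted to 38 libraries in 8 groups, with TMM factors, filterByExpr (minimum count 10, minimum total 15, proportion 0.7), the quasi-likelihood test, and Benjamini-Hochberg adjustment. DESeq2 1.42.0 was an alternative. The fits were tested on simulated data. Named members were up to 4 per direction and day by p, those called at 2 or more days, the 6 highest per length, and, where fewer than 2 were called, the 2 with the smallest p. Up to 3 per direction were named from each other list. Other called members, Hist1h4m, Hist3h2a, Hist4h4, Mms22l, Slbp, and Npat were chosen after their values were seen. The members and lists were chosen with earlier results of these data known. Nothing in the labels ties a replicate to more than its library, so p-values measure the spread between these libraries. GENCODE M21 gave positions and lengths.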

Additional observations from a re-analysis of the deposited data

Results flagged for a closer look

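Of 105 groups of 4 to 6 libraries tested for a single distant library, 5 were flagged, and chance flags about 1 in 20 groups. HNKO library 29 of day 6 was far above the other HNKO libraries of that day for 3 members. It had 1.841 CPM for Hist1h2ab (others 0.455 to 0.682), 5.313 CPM for Hist1h2bn (others 1.774 to 2.106), and 3.192 CPM for Hist1h3c (others 0.911 to 1.092). Hist1h1e was low in HNKO library 12 of day 12, at 38.189 CPM against 54.739 to 61.651 in the others. Hist1h4f was low in WT library 41 of day 21, at 2.59 CPM against 3.778 to 4.1 in the others.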

How the results depend on the processing

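Among the named members, 0 called values changed sign under the alternatives run, but values close to 0 that were not called did. Hist1h1c at day 6 went from 0.065 to -0.11 with 1 library left out, Hist1h1e at day 3 from 0.041 to -0.005 likewise, and Hist1h1e at day 21 from 0.21 to -0.014 with all 40 libraries, and Hist1h2bc at day 21, Hist1h3e at day 6, Hist1h4h at day 3, and Hist1h4c at days 3, 12, and 21 also took both signs. At day 3 the 5 members called became 3 with no filter and 3 with 10 counts in every library, 0 with all 40 libraries, 2 in a fit of the 2 groups alone, and 1 over the 12 mostly unique members. At day 6 the 5 became 2 with 10 counts in every library, 1 with all 40 libraries, 3 in a fit of the 2 groups, and 0 over the unique members. At day 12 the 1 became 4 with DESeq2, 0 with 10 counts in every library, 4 in a fit of the 2 groups, 2 with the edgeR 4 computation, 2 with the library run as covariate, and 0 over the unique members. At day 21 the 17 became 11 with 10 counts in every library, 8 with all 40 libraries, and 3 over the unique members. The 2 day effects in WT became 1 with no filter, 1 with all 40 libraries, 5 with the library run as covariate, and 0 over the unique members, and the 1 in HNKO became 0 with all 40 libraries and 0 over the unique members. With 1 library left out, the counts ranged from 0 to 11 at day 3, 0 to 9 at day 6, 1 to 4 at day 12, 0 to 22 at day 21, 1 to 4 for WT day effects, and 0 to 2 for HNKO day effects. Fewer genes or libraries enter some of these fits, and the cause was not tested otherwise. DESeq2 called 7, 7, 4, and 21 members at the 4 days. The share of all genes called by DESeq2 is not given here, and the shares above are those of edgeR, so these counts have no background. No paired analysis was possible because the groups share no replicate numbers. Few counts, shared sequence, and single libraries all limit these counts of calls.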

Other observations

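The 2 HNKO libraries of day 21 described as failing quality control were left out of the comparisons above, apart from the alternative with all 40 libraries. Library 17 had 12287423 counts, 31 of 50 members at 0, 9 members above every WT library of day 21, and 37 below. Library 18 had 15935527 counts, 5 members at 0, 21 above every WT library of day 21, and 13 below. Their summed CPM over the members was 220.239 and 278.923.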
